A study of Mus musculus with 6 samples.

Results

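Described here are 9 genes of the complement system, chosen by symbol, among the 17382 genes of the deposited table: the C1q chain genes C1qa, C1qb and C1qc, the component genes C3, Cfb (factor B) and Cfp (properdin), the receptor genes C3ar1 and C5ar1, and Serping1, which encodes the C1 inhibitor. The study compared 3 libraries labelled knockout, from C57BL/6 mice with both PD-L1 alleles floxed and lysozyme-Cre, with 3 libraries labelled wild type, from C57BL/6 mice that carry the same floxed alleles and whose genotype label names no Cre. All mice were 2 months old. Marrow cells were cultured over 3 days in 10% serum and M-CSF at 40 ng/mL, a factor on which macrophages depend. Lysozyme-Cre acts in cells that express the lysozyme gene Lyz2, so that cells of the culture without it keep the floxed alleles. Levels are in TPM, reads per gene length scaled to the same total in every library, so that genes can be compared with each other.

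Complement is a cascade of proteases and binding proteins that marks particles for uptake, calls in leukocytes through small cleaved peptides and can perforate membranes. C1q starts the classical pathway, C3 is the component on which all pathways converge, factor B and properdin build and steady the amplifying enzyme of the alternative pathway, and the C1 inhibitor restrains the proteases that C1q carries. Liver cells make most circulating components, while macrophages are a main source of C1q and carry the receptors for the peptides cleaved from C3 and C5.

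Recovered depth was 60592797 to 73451614 reads in libraries labelled knockout, against 52355659 to 77318131 reads in wild type. The targeted gene Cd274 was not lower where the label says knockout: 19.3, 19.2 and 29.2 TPM in libraries labelled knockout, against 17.9, 15.5 and 23.7 TPM in wild type (log2 difference 0.24 ± 0.22, limma adjusted p = 1.0). Which exons were floxed is not given in the sources used here and a level over the whole gene cannot check their loss, so every direction given follows the labels. All 10 macrophage markers listed were measured, 7 of them higher in libraries labelled knockout, and their sum was 18826 to 26272 TPM there, against 33179 to 47496 TPM in wild type. Most of it was Lyz2, which had 17229 ± 3464 TPM in libraries labelled knockout, against 31519 ± 7665 TPM in wild type. Lyz2 was the only marker of the 10 whose groups did not overlap, so the gap between the sums does not measure macrophages. The next most abundant were Cd68 and Csf1r, at 2129 ± 206 and 1206 ± 342 TPM in libraries labelled knockout, against 2263 ± 253 and 1204 ± 277 TPM in wild type (n = 3 each, SD). Genes of neutrophils were also abundant, with a sum of 6899 to 8037 TPM in libraries labelled knockout, against 5764 to 8418 TPM in wild type over 8 measured markers. Of the hepatocyte markers Alb, Apoa1 and Ttr the mean was under 0.1 TPM. Among the 13 stromal and endothelial markers this held for Col3a1, Pdgfra, Lepr, Dcn and Lum. The others averaged from 0.145 TPM (Col1a2) to 4.42 TPM (Pecam1), with Kdr at 3.41 and Cdh5 at 1.02 TPM. The libraries differed most along the first principal component of the tested genes outside these 9, which held 44.4% of the variance. Its scores were -23.0, -17.4 and 31.8 in knockout 1, 2 and 3 and 19.7, 19.0 and -30.1 in wild type 1, 2 and 3, so that knockout 1 and 2 stood with wild type 3, and knockout 3 with wild type 1 and 2.

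The promoters of C1qb, C1qc and C5ar1 are shown because the C1q genes and C5ar1 divided the libraries in opposite directions. RefSeq promoter windows of build GRCm38.p6, the same build as mm10, run from 250 bases before to 50 bases after the gene start and were found for 6 of the 9 genes; C1qa, Cfb and Serping1 had no entry. Below are those of C1qb (minus strand, chr4:136886151-136886450), C1qc (minus strand, chr4:136892865-136893164) and C5ar1 (minus strand, chr7:16259289-16259588), 5′ to 3′. Capitals mark a match to TGCTGA, the core of sites bound by MAF factors, in C1qb and C5ar1, and to GAGGAAGT, a site of the myeloid factor PU.1 that reads ACTTCCTC on the strand shown, in C1qc.
C1qb: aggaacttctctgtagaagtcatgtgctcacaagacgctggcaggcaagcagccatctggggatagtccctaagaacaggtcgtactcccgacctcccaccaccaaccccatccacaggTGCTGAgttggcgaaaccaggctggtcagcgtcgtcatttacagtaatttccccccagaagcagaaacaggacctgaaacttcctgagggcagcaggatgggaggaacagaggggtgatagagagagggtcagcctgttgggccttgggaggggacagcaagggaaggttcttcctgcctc
C1qc: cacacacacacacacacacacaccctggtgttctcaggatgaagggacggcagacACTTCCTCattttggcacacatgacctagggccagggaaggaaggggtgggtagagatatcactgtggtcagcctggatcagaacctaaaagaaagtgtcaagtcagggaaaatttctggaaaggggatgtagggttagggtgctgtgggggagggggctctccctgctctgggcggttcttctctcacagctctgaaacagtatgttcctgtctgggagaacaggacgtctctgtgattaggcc
C5ar1: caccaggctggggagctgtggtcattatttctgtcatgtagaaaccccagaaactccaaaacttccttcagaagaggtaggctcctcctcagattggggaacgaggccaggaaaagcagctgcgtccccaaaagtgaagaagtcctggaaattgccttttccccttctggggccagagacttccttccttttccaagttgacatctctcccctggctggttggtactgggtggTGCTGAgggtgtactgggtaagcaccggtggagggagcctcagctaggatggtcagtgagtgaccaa
The MAF core starts 131 bases before the gene start in C1qb and 17 bases before it in C5ar1, and the PU.1 site 195 bases before it in C1qc. On either strand TGCTGA occurred in 4 of the 6 windows, those of C1qb, C5ar1, C3ar1 and C3, and in 19.5% of 32851 windows of this length. The PU.1 letters occurred in 1 of the 6 windows and in 3.20% of all. The gamma-activated site TTCNNNGAA and the interferon-stimulated response element had no match in the 6 windows and matched 8.30% and 3.44% of all. TGANTCA, the AP-1 site, matched in C3ar1 (7.81% of all), TTGCNNAA, a C/EBP site, in C3 (10.8% of all), and the direct repeat bound by LXR in none of the 6 (0.0213% of all). These are matches of letters in a window and not sites shown to be bound.

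The 9 genes covered a wide range of levels. Averaged over all 6 libraries, C1qb stood at 2201 ± 358 TPM, the 32nd most abundant gene of the table. C1qc followed at 1286 ± 229, Cfp at 762 ± 33.7, C3ar1 at 562 ± 28.1, C5ar1 at 552 ± 197 and C1qa at 550 ± 91.9 TPM. C3 had 43.4 ± 7.48, Cfb 3.48 ± 2.27 and Serping1 0.0967 ± 0.0507 TPM (SD over 6 libraries of both groups). The order C1qb, C1qc, Cfp, C3ar1 held in each of the 6 libraries, as did C1qa above C3, C3 above Cfb and Cfb above Serping1. C3ar1, C5ar1 and C1qa did not differ beyond their spread: C3ar1 was above C5ar1 in 3 of 6 libraries, and C5ar1 above C1qa in 3 of 6.

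**Figure D1:**
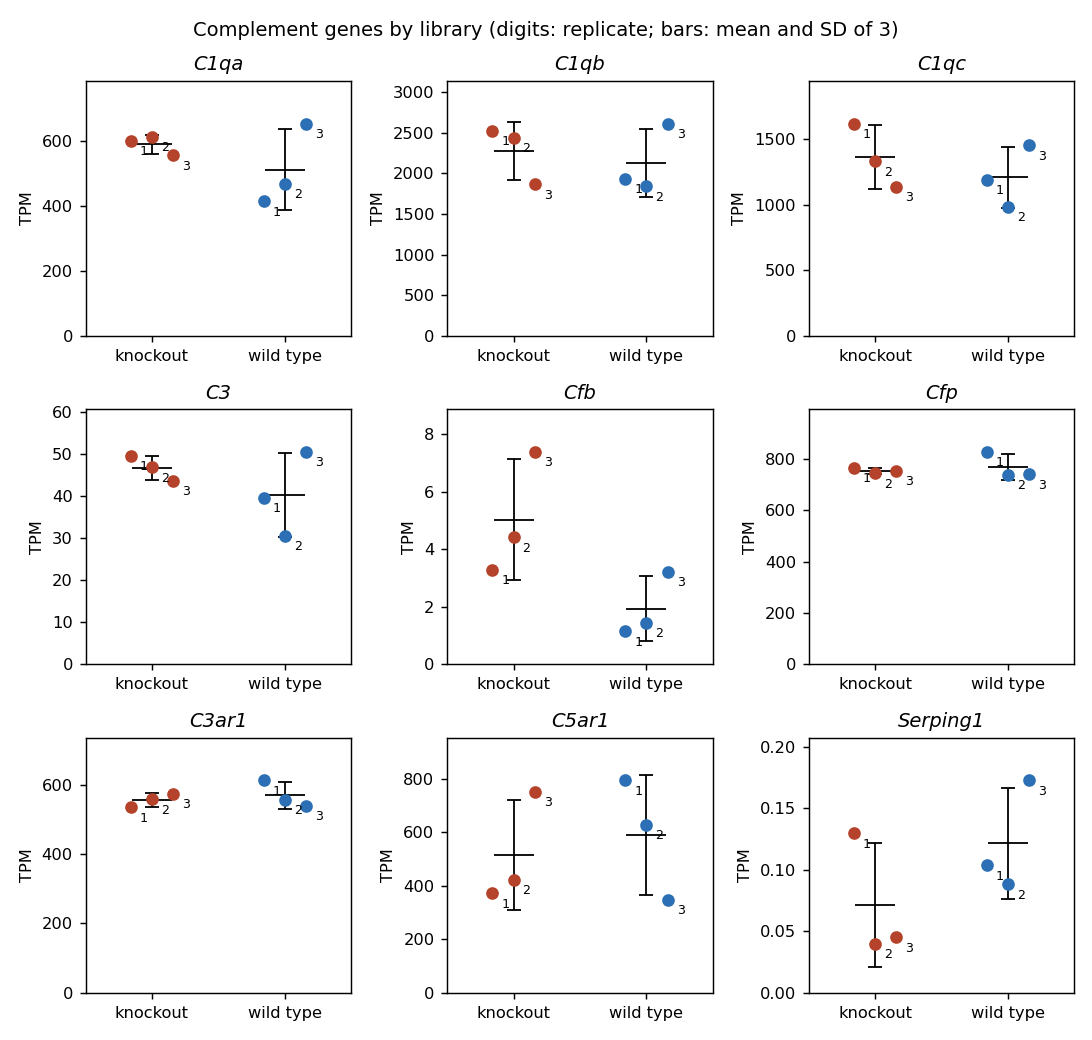
TPM of the 9 complement genes (vertical axes, each from 0) in libraries labelled knockout (red) and wild type (blue); digits give the replicate, and bars the mean and SD of 3 libraries. The 3 C1q genes and C3 are high in wild type 3 and low in wild type 1 and 2, C5ar1 shows the reverse, and Cfb lies lowest in wild type 1 and 2.

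The C1q genes encode the A, B and C chains of one protein. They lie side by side on the minus strand of chromosome 4 of mm10, C1qb from 136880145 to 136886177, C1qc from 136889802 to 136892914 and C1qa from 136895916 to 136898844, with 3624 and 3001 bases between neighbours, and the longest annotated transcript of each has 3 exons. C1qb had 2521, 2436 and 1864 TPM in knockout 1, 2 and 3, against 1934, 1842 and 2612 TPM in wild type 1, 2 and 3. C1qc had 1619, 1330 and 1138 TPM in libraries labelled knockout, against 1192, 985 and 1452 TPM in wild type. C1qa had 600, 611 and 555 TPM in libraries labelled knockout, against 413, 467 and 652 TPM in wild type. In each of the 3 genes the values of the groups overlapped. Wild type 3 lay above knockout 2 in all 3, and knockout 3 lay below wild type 1 in C1qb and C1qc.

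The genotype difference of the chains was within the spread between libraries. On the scale of log2(TPM + 0.1), knockout minus wild type was 0.23 ± 0.17 for C1qa (SE; 95% interval -0.18 to 0.64), 0.10 ± 0.19 for C1qb (-0.35 to 0.55) and 0.17 ± 0.19 for C1qc (-0.28 to 0.63). None passed the limma test over 13722 genes (adjusted p = 1.0 for each), and the upper end of each interval lies under a log2 difference of 1. The estimates depended on wild type 3: without it they were 0.42 for C1qa (unadjusted p of 0.00544, limma adjusted p = 0.566), 0.26 for C1qb and 0.32 for C1qc. In the authors' deposited table the log2 fold changes of C1qa, C1qb and C1qc are 0.20, 0.09 and 0.17, with adjusted p-values of 1.0. In bulk RNA a smaller number of cells of a type and less RNA per cell cannot be told apart.

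The proportions of the 3 chains were compared within each library. Their summed level was 4740, 4377 and 3556 TPM in knockout 1, 2 and 3, against 3539, 3294 and 4716 TPM in wild type 1, 2 and 3, or 0.329% to 0.474% of all TPM. C1qb over C1qc was 1.56, 1.83 and 1.64 in libraries labelled knockout, against 1.62, 1.87 and 1.80 in wild type. The mean of this ratio was 1.68 ± 0.141 in libraries labelled knockout, against 1.76 ± 0.127 in wild type (SD, n = 3 each; exact permutation test, two-sided, p = 0.5, where 3 against 3 cannot go below 0.1). C1qa over C1qc was 0.37, 0.46 and 0.488 in libraries labelled knockout, against 0.347, 0.474 and 0.449 in wild type. Its mean was 0.439 ± 0.0614 in libraries labelled knockout, against 0.423 ± 0.0673 in wild type (SD, n = 3 each; exact permutation p = 0.6). The coefficient of variation over the 6 libraries was 7.55% for C1qb over C1qc, 13.5% for C1qa over C1qc and 16.1% for the sum. C1qa had the lowest level of the chains in every library, a comparison that depends on the gene lengths behind the TPM values.

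C3, which lies on chromosome 17 from 57203973 to 57228136, followed the C1q genes over libraries at a far lower level. It had 49.5, 46.9 and 43.6 TPM in knockout 1, 2 and 3, against 39.6, 30.5 and 50.4 TPM in wild type 1, 2 and 3. The libraries labelled knockout lay close together, between wild type 1 and wild type 3. The log2 difference was 0.24 ± 0.18 (95% interval -0.19 to 0.68; limma adjusted p = 1.0), and 0.42 without wild type 3 (unadjusted p of 0.0208, limma adjusted p = 0.657). The levels rested on 4306 to 7520 reads per library, so counting error was small beside the spread.

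Cfb was the one gene of the 9 with values that did not overlap between the groups. It lies on chromosome 17 from 34856374 to 34862514 and encodes factor B, which supplies the protease of the alternative pathway's C3-cleaving enzyme. Cfb had 3.30, 4.42 and 7.38 TPM in knockout 1, 2 and 3, against 1.15, 1.44 and 3.22 TPM in wild type 1, 2 and 3. The gap between knockout 1 and wild type 3 was small: 268 reads (95% counting interval 237 to 302, exact Poisson) in knockout 1 and 253 reads (223 to 286) in wild type 3, while wild type 1 had 67 reads (51.9 to 85.1).

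The log2 difference of Cfb was 1.39 ± 0.44 (95% interval 0.34 to 2.44), a 2.62-fold higher level on this scale. It had an unadjusted p of 0.017 in limma and did not pass over all genes (adjusted p = 1.0). limma-voom on the recovered reads gave 1.40 with an unadjusted p of 0.0164 (adjusted p = 1.0); 2.26% of all genes had an unadjusted p under 0.05 there. In the authors' deposited table the log2 fold change of Cfb is 1.37 with an adjusted p of 0.20. At an unadjusted p under 0.05 limma had 2.18% of all tested genes, or 1.25% counting those higher in libraries labelled knockout, and 1 of the 9 complement genes, Cfb. With single libraries left out, the unadjusted p of Cfb in limma depended on which was removed. It was 0.0597 without wild type 1, 0.0556 without wild type 2 and 0.00227 without wild type 3. Without knockout 1, 2 or 3 it was 0.0136, 0.0362 and 0.0498. The groups did not overlap, with knockout higher, for 2.84% of all tested genes and for 1 of the 9; in either direction the share over all genes was 5.12%. After quantile normalization, an alternative added after the values had been seen, the values of Cfb overlapped.

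Cfb differed by 2.43 on the log2 scale between knockout 3 and the mean of wild type 1 and 2, and by 0.24 between the mean of knockout 1 and 2 and wild type 3. With the score on the first component as a term, the difference was 1.38 ± 0.45 (unadjusted p of 0.0209, limma adjusted p = 0.98). Genes of the interferon gamma response differed in the same direction, and none passed limma over all genes: all 20 tested members of 21 listed had a positive log2 difference, 14 without overlap, and their summed level was 1474 to 1783 TPM in libraries labelled knockout, against 978 to 1263 TPM in wild type. The T and NK cell markers did so at low levels, with a sum of 6.53 to 10.4 TPM in libraries labelled knockout, against 2.92 to 4.71 TPM in wild type over 11 measured markers. In the type I interferon list 13 of 14 tested genes had a positive difference, 1 of them without overlap. Of all 13722 tested genes, 7006 had a positive difference, and 2.84% were higher in libraries labelled knockout without overlap. The part of the interferon response genes and of the T and NK cell markers in the level of Cfb was not tested. By the root mean square difference of centred log2 values over the 6 libraries, the genes nearest to Cfb among 11651 were Mir6958 (0.241), Gbp8 (0.288) and Gm4951 (0.313). Gbp8 encodes a guanylate-binding protein, a family induced by interferons. In GENCODE M21 Cfb overlaps, on its own strand, the gene model Gm20547, which was not analysed here, and a microRNA; reads of such models cannot be assigned to one of them with certainty.

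**Figure D2:**
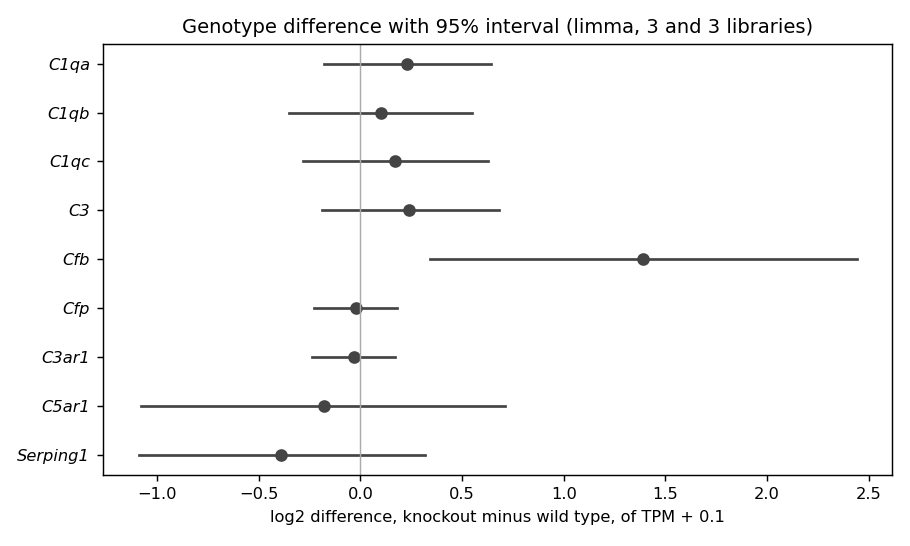
log2 difference of TPM + 0.1, knockout minus wild type (horizontal axis), with its 95% interval from limma for each of the 9 genes. The interval of Cfb, 0.34 to 2.44, is the only one that does not reach 0, before adjustment over 13722 genes, and those of Cfp and C3ar1 are the narrowest.

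Cfp, which lies on chromosome X from 20925535 to 20931524 and encodes properdin, the stabilizer of the alternative pathway enzyme, varied least of the 9 genes. It had 767, 744 and 755 TPM in libraries labelled knockout, against 828, 739 and 742 TPM in wild type. The highest library exceeded the lowest by 1.12-fold, and the log2 difference was -0.02 ± 0.08 (95% interval -0.23 to 0.18; limma adjusted p = 1.0).

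The receptor genes gave a steady and a variable member. C3ar1, on chromosome 6 from 122847140 to 122856157, encodes the receptor of the C3-derived peptide. It had 535, 558 and 573 TPM in libraries labelled knockout, against 612, 556 and 539 TPM in wild type. The log2 difference was -0.03 ± 0.08 (95% interval -0.24 to 0.17; limma adjusted p = 1.0). The highest library exceeded the lowest by 1.14-fold. C5ar1, on chromosome 7 from 16246743 to 16259540, encodes the main receptor of the C5-derived peptide, an attractant of neutrophils and monocytes. It had 371, 423 and 750 TPM in knockout 1, 2 and 3, against 793, 627 and 347 TPM in wild type 1, 2 and 3. Low and high libraries occurred in both groups. The log2 difference of -0.18 ± 0.37 had a wide 95% interval of -1.08 to 0.71 (limma adjusted p = 1.0). With the score on the first component as a term it was -0.07 ± 0.10, with an interval of -0.31 to 0.16 (limma adjusted p = 0.98).

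C1q and C5ar1 divided the libraries the same way in opposite directions, across the labels. In knockout 1 and 2 and wild type 3, the libraries with negative scores on the first component, C1qb had 2436 to 2612 TPM and C5ar1 347 to 423 TPM. In knockout 3 and wild type 1 and 2, with positive scores, C1qb had 1842 to 1934 TPM and C5ar1 627 to 793 TPM. The ratio of C5ar1 to the summed C1q level was 0.0783, 0.0966 and 0.211 in knockout 1, 2 and 3 and 0.224, 0.19 and 0.0736 in wild type 1, 2 and 3. C1qa, C1qb, C1qc, C3 and C5ar1, 5 of the 9 genes, did not overlap between the 2 sides, as did 47.3% of all tested genes, so that the share among the complement genes was near that of the table. The mean of the negative side over that of the positive side was 1.30 for C1qa, 1.34 for C1qb, 1.33 for C1qc, 1.29 for C3 and 0.526 for C5ar1. Because values defined the sides, no test is given. Within the negative side, knockout minus wild type on the log2 scale was -0.11, -0.08 and 0.02 for C1qa, C1qb and C1qc, and 0.19 for C5ar1. Within the positive side it was 0.34, -0.02 and 0.07 for the chains, and 0.09 for C5ar1. The summed level of the 8 neutrophil markers was 7791 to 8418 TPM on the negative side and 5764 to 7114 TPM on the positive side. The sum of the 9 erythroid markers was 41.7 to 65.5 TPM on the negative side and 75.9 to 112 TPM on the positive side, and that of the 7 megakaryocyte markers 1072 to 1153 TPM and 793 to 1054 TPM on the same sides. Of the macrophage markers, Mertk, Csf1r, Emr1 and Mrc1 did not overlap between the sides and were higher on the negative side, with positive minus negative differences of -0.69, -0.58, -0.39 and -0.23 on the log2 scale. The part of these cell types in the division of the complement genes was not tested.

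**Figure D3:**
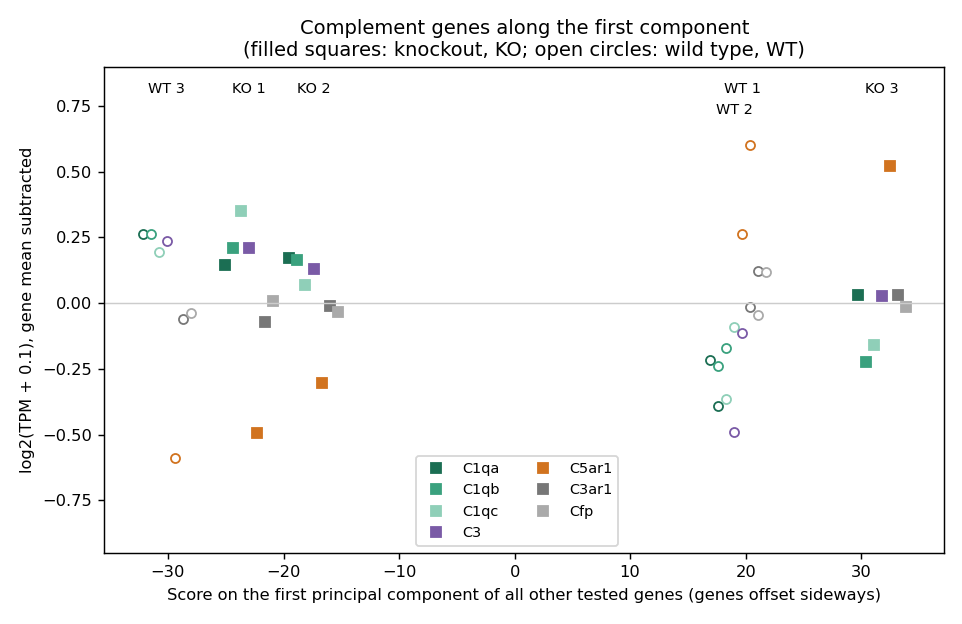
log2(TPM + 0.1) of 7 complement genes with each gene's mean subtracted (vertical axis) against the score of the library on the first principal component of all other tested genes (horizontal axis, with genes of 1 library set slightly apart sideways); filled squares are libraries labelled knockout, open circles wild type. The C1q genes and C3 are higher at negative scores, C5ar1 is higher at positive scores, and C3ar1 and Cfp stay near 0.

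The chains were not each other's nearest genes by pattern. For C1qb the nearest among 11651 genes with a mean of at least 1 TPM were Rasa3, Kansl1l and St8sia4, at root mean square differences of 0.0155, 0.0195 and 0.0222 on the log2 scale over the 6 libraries. C1qc, at 0.0997, was the nearest of the other complement genes, with 696 genes of the table nearer. For C1qa the nearest were Optn, Plcl2 and Xpa (0.0497 to 0.0559), and for C1qc Dusp28, Copz2 and Amt (0.0461 to 0.0519). For C5ar1 they were Tnfrsf22, Cdr2 and Fkbp11 (0.046 to 0.0873). For C3 they were Mefv, Rasal3 and Trim34a (0.0558 to 0.0593). C3ar1 and Cfp, which hardly varied, lay nearest to Patl1, Fnbp4 and Gosr2 (0.0152 to 0.0183) and to Pdcd6, Bsg and Med11 (0.015 to 0.019).

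Serping1, on chromosome 2 from 84765360 to 84775429, was close to the limit of detection. It had 7, 2 and 2 reads in libraries labelled knockout, or 0.130, 0.0401 and 0.0453 TPM, against 4, 5 and 9 reads in wild type, or 0.104, 0.0883 and 0.173 TPM. The groups overlapped, and the counting intervals are wide: 2 reads stand for 0.242 to 7.22 and 9 reads for 4.12 to 17.1. The log2 difference of -0.39 ± 0.29 (95% interval -1.09 to 0.32; limma adjusted p = 1.0) depends on the 0.1 TPM added to each value and is -0.07 with 1 TPM and -0.80 with 0.01 TPM. The genes nearest by pattern, Adcy6, Nrgn and Ehd3 (0.0709 to 0.126), were matched to values of so few reads that they are given for completeness.

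Taking the 9 genes as a list, 5 lay higher and 4 lower in libraries labelled knockout, with a median log2 difference of 0.10, against 0.003 over all 13722 genes. All 9 passed the filter on low values. At an adjusted p under 0.05 limma and limma-voom each called 0 of the 9, and 0.0% of all genes. The authors' deposited table, which calls 0.265% of its genes at an adjusted p under 0.05, calls none of the 9 either, and at its unadjusted p under 0.05 it has 3.23% of all genes and 1 of the 9, Cfb.

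Other genes of the system were taken from 4 lists of 48 genes, of which 38 are in the table and 26 passed the filter. Of these 26, 8 lay higher and 18 lower in libraries labelled knockout, with a median log2 difference of -0.08, and none passed limma over all genes. Those with an unadjusted p under 0.05 numbered 3, or 11.5%, against 2.18% of all genes; the groups did not overlap for 3, or 11.5%, against 5.12%. In the classical and lectin pathway list, 4 of 9 tested genes were positive and 5 negative. C4b, whose product is cleaved by the C1 complex, had 0.658, 0.568 and 0.733 TPM in libraries labelled knockout, against 0.21, 0.244 and 0.466 TPM in wild type, without overlap (log2 difference 0.93 ± 0.28, unadjusted p of 0.0126, limma adjusted p = 1.0). C4a is a close copy of C4b, so the division of reads between them is uncertain; C4a, named after its values were seen, had 0.272 ± 0.0319 TPM in libraries labelled knockout, against 0.287 ± 0.0644 TPM in wild type (n = 3 each, SD).

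The most abundant genes of that list were Colec12, Fcna and Fcnb, while the lectin pathway genes Colec11, Masp1 and Masp2, named after their values were seen, averaged 0.105, 0.0257 and 0.0146 TPM over the 6 libraries. Colec12, a collectin that acts as a scavenger receptor, had 38.1 ± 3.43 TPM in libraries labelled knockout, against 50.3 ± 13.8 TPM in wild type. Fcna, which encodes ficolin A, had 19.6 ± 4.81 TPM in libraries labelled knockout, against 27.0 ± 6.41 TPM in wild type (n = 3 each, SD), with a log2 difference of -0.46 ± 0.24. The proteases that C1q carries were scarce, as the following genes show, named after their values were seen. C1ra, one of the C1r genes, had 4.04 ± 0.533 TPM in libraries labelled knockout, against 3.34 ± 0.258 TPM in wild type. C1s1 had 2, 1 and 0 reads in libraries labelled knockout, against 2, 5 and 2 in wild type, and its near copy C1s2 7 to 8 reads in libraries labelled knockout, against 7 to 9 in wild type. C2 lies 87 bases from Cfb on the side of higher coordinates, where Cfb, on the minus strand, begins. C2 had 0.818, 0.814 and 0.452 TPM in libraries labelled knockout, against 0.607, 0.778 and 1.11 TPM in wild type. It did not share the pattern of its neighbour.

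Late components were near 0. In the list of alternative pathway and terminal components 5 of the 6 genes in the table had a mean under 0.1 TPM, among them Hc, which encodes C5, with 17 reads over the 6 libraries, C6 with 2, C8a with 4, C9 with 3 and the factor D gene Cfd with 7. The exception was C8g, which encodes the gamma chain of C8, at 0.844 ± 0.485 TPM in libraries labelled knockout, against 0.935 ± 0.243 TPM in wild type (n = 3 each, SD). Where a library holds 0 reads, the limit on the level is 3 reads, or 0.0388 to 0.0573 CPM.

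Among complement receptors, 4 of 8 tested genes were positive and 4 negative. The integrin genes Itgb2 and Itgam, which together encode complement receptor 3, had 640 ± 48.3 and 528 ± 19.2 TPM in libraries labelled knockout, against 624 ± 26.2 and 509 ± 15.4 TPM in wild type, at the level of C3ar1. Vsig4, a macrophage receptor for fragments of C3, had 0.802, 0.993 and 1.04 TPM in libraries labelled knockout, against 2.01, 4.2 and 2.15 TPM in wild type. Its groups did not overlap (log2 difference -1.40 ± 0.30, unadjusted p of 0.00269, limma adjusted p = 1.0). C5ar2, the other receptor of the C5-derived peptide, had 5.65 ± 0.653 TPM in libraries labelled knockout, against 6.84 ± 0.959 TPM in wild type, and did not divide the libraries as C5ar1 did, with a difference of 0.04 between the positive and the negative side on the log2 scale, against 0.93 for C5ar1.

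All 8 tested regulators had a negative log2 difference, with a median of -0.29, and none passed limma over all genes; of all 13722 tested genes 6716 lay lower in libraries labelled knockout. Markers of some other cells also lay lower there: 9 of 10 of B and plasma cells (median log2 difference -0.51), 9 of 9 of erythroid cells (-0.31) and 6 of 7 of megakaryocytes (-0.31). So did 6 of 7 tested markers of dendritic cells and 7 of 8 of stromal and endothelial cells. The erythroid genes Hba-a1 and Hba-a2 had the same reads in every library. Higher there were 8 of 8 tested T and NK cell markers and 7 of 10 macrophage markers. The same held for 6 of 8 monocyte and progenitor and 5 of 8 neutrophil markers. The part of these cell types in the levels of the regulators was not tested. Cr1l, a membrane regulator of rodents also called Crry, was the most abundant at 82.3 ± 2.92 TPM in libraries labelled knockout, against 83.0 ± 7.06 TPM in wild type. Cd55, the decay-accelerating factor, had 3.04, 3.06 and 2.22 TPM in libraries labelled knockout, against 3.35, 4.28 and 3.68 TPM in wild type, without overlap (log2 difference -0.44 ± 0.18, unadjusted p of 0.0489, limma adjusted p = 1.0). Clu, which encodes clusterin, had 3.35 ± 0.488 TPM in libraries labelled knockout, against 4.44 ± 0.706 TPM in wild type (log2 difference -0.40 ± 0.18).

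**Figure D4:**
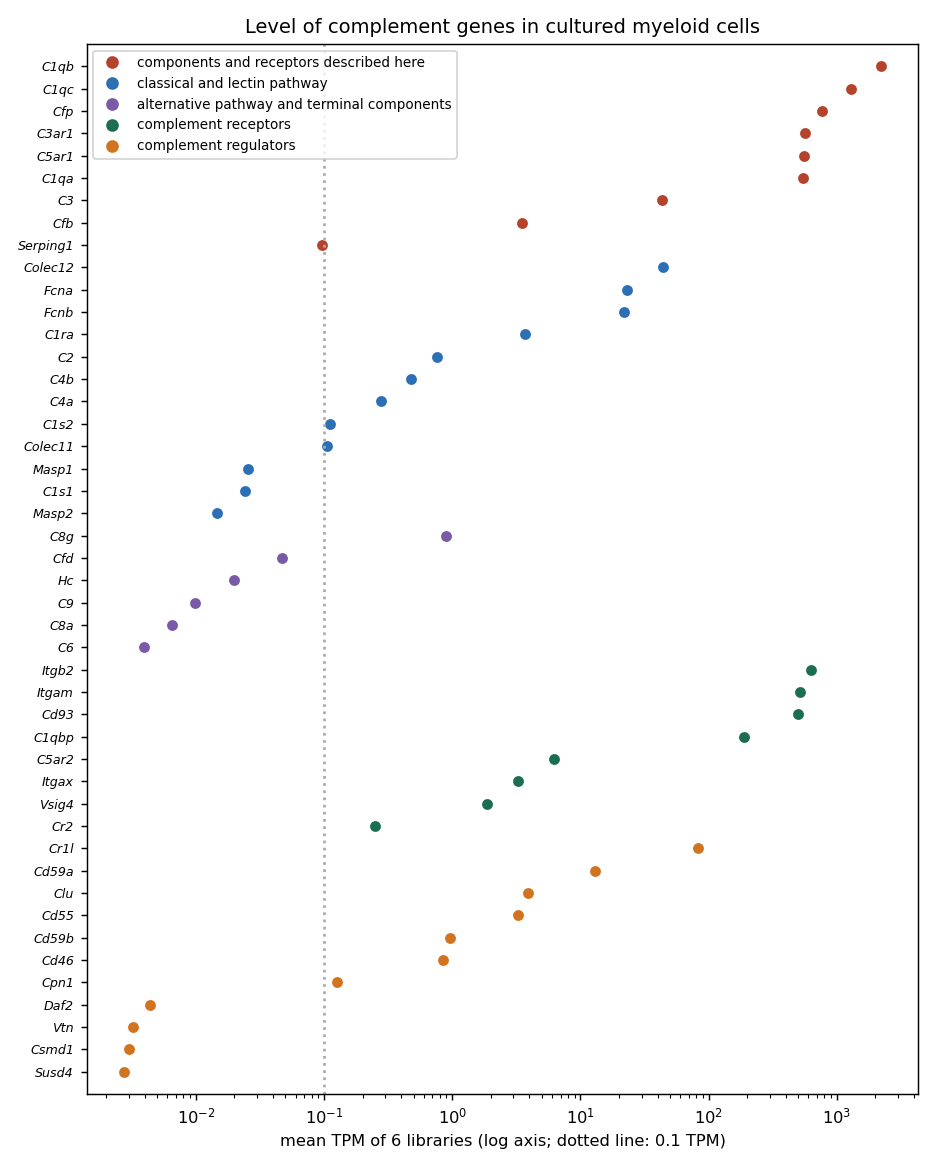
Mean TPM over 6 libraries of both groups (horizontal log axis) for the 9 complement genes and for 37 of the 38 other genes of the system, coloured by list. C1qb, C1qc and Cfp lead, the receptors lie near the integrins Itgb2 and Itgam, and Serping1, C1s1 and most terminal components lie near or left of the dotted line at 0.1 TPM.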

How the data were processed

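The authors deposited 1 table of TPM values, a unit judged by each library's sum and by values with fractions. Per the file headers its other columns are a log2 fold change, an average log2 CPM, a test score, a p-value and its adjusted form, all computed by the authors; signs show that a positive fold change means higher in knockout. The submitters' processing notes name TopHat2 2.0.12, Subread, featureCounts, edgeR and mm10; options and annotation were not given in the sources used here. Stranded total RNA libraries were made from 4 µg of RNA, per the labels' protocols.

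Ratios between libraries gave back the whole reads behind TPM for 100.0% of 17382 genes, within 0.0001 of a read. In 427 genes the common multiple came from the authors' average log2 CPM, and the median difference from that average was -1.5e-05. Starts were made 1-based.

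Differences by genotype were fitted in limma 3.58.1 with R 4.3.3 (mean-variance trend, two-sided, adjusted p under 0.05 by Benjamini-Hochberg), taking log2(TPM + 0.1) of the 13722 genes that reached 0.1 TPM in 3 or more libraries; the fit and the recovery were tested on simulated data. Adding 0.1 TPM understates changes of low genes. p-values measure the spread between these samples, which the design text calls biological triplicates, and read intervals cover counting error only. After ± stands an SE for log2 differences and an SD for levels. The genes and lists were chosen with earlier results of these data known. Named were all 9 genes, Cd274, in each other complement list the 2 genes of smallest p and the 2 of highest mean level, the 3 genes nearest to each of the 9, and abundant markers; others are said to be named after their values were seen. 1 gene of the regulator list that this rule names is not reported here.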

Additional observations from a re-analysis of the deposited data

How the results depend on the processing

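limma called 0 genes, 0 of the 9 complement genes and 0 of the other complement genes under every alternative run: pseudocounts of 1 and 0.01 TPM, no filter, a filter of 1 TPM, 2 scalings, no trend, the first component as a term, the replicate block, limma-voom and each library left out. Genes at an unadjusted p under 0.05 numbered 299, and 168 to 1012 under the alternatives, the highest without wild type 3. Serping1 could not be fitted where a filter removed it. With the replicate block 0 genes were called and 232 had an unadjusted p under 0.05 in limma. Same-numbered libraries deviated from their group means in opposite directions (correlations of -0.239, -0.146 and -0.534). Deviations from means of 3 libraries cannot show whether same-numbered libraries were prepared together.

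The number of the 9 genes without overlap was 1, 0 with quantile normalization, and 1 to 3 with single libraries left out. Serping1 joined Cfb without knockout 1, on 2 and 2 reads against 4, 5 and 9. Cfp joined without wild type 1, and C1qa and C3 without wild type 3. Groups of fewer libraries separate more easily. The share over all genes was not computed with a library left out, so these counts cannot be set against the 5.12% of all 6 libraries. With single libraries left out, the difference in C1qa over C1qc ranged from -0.0223 to 0.0504 around 0.0159. The log2 differences of C3ar1 (-0.07 to 0.02), C5ar1 (-0.53 to 0.07) and Cfp (-0.05 to 0.03) changed sign. Those of C1qa (0.09 to 0.42), C1qb (0.00 to 0.26), C1qc (0.04 to 0.32), C3 (0.06 to 0.42) and Cfb (1.08 to 1.81) did not. Serping1 passed the filter only without knockout 2, knockout 3 or wild type 2, and ranged from -0.50 to -0.26 in those fits. The cause of these changes was not tested.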
